A study of Arabidopsis thaliana with 42 samples.

Results

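The core autophagy machinery of *Arabidopsis thaliana*, without the ATG8 family, was followed as 30 genes chosen by name: the ATG1 kinase complex (8 genes), *ATG6* of the lipid kinase complex (1), the membrane delivery genes *ATG9*, *ATG2* and *ATG18a* to *ATG18h* (10), the conjugation genes *ATG3*, *ATG4*, *ATG5*, *ATG7*, *ATG10*, *ATG12* and *ATG16* (9), and the cargo receptors *NBR1* and *ATI1* (2). All 30 were among the 27050 genes of the deposited table. RNA-seq had been run on 42 libraries in 14 conditions of 3 replicates, each replicate a pool of 2 leaves from independent plants. Col-0 wild type (WT) was sampled from illuminated leaves at 0 d and at 4 later times (6 h, 1 d, 3 d, 6 d), and from individually darkened leaves (IDLs), which were covered while the plant stayed in light, at those 4 later times. The *rpn12a-236* mutant was sampled from illuminated leaves at 0 d and from IDLs at the same 4 times, with no illuminated leaves after 0 d. The mutant is a single recessive EMS allele in the Col-0 background, backcrossed 2 times, with a premature stop codon in *RPN12a*, which encodes a lid subunit of the 19S regulatory particle of the proteasome. Plants of both genotypes grew in short days, and the 6 h leaves were harvested at 2 pm while all others were taken at 8 am.

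Autophagy encloses cytoplasm in a double membrane, the autophagosome, and delivers it to the vacuole for breakdown. The ATG1 kinase with its partners ATG13, ATG11 and ATG101 starts the process, a lipid kinase complex containing ATG6 marks the growing membrane with phosphatidylinositol 3-phosphate, and ATG9 vesicles, the lipid transfer protein ATG2 and the ATG18 proteins that bind this lipid supply and extend it. A conjugation pathway resembling that of ubiquitin (the protease ATG4, the activating enzyme ATG7, the conjugating enzymes ATG3 and ATG10, and the ATG12-ATG5-ATG16 assembly) attaches ATG8 to the membrane, where receptors such as NBR1 bring in their cargo. In leaves, autophagy is known for recycling proteins and chloroplast material during carbon starvation and senescence, and it degrades proteasomes that are inactive.

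The deposited values were z-scores, each gene scaled to a mean of 0 and an SD of 1 over the 42 libraries, so that a difference is given here in SDs of that gene and neither fold changes nor levels of one gene against another can be read. A gene was called where limma with Benjamini-Hochberg adjustment over all genes gave an adjusted p of at most 0.01. In whole leaves, fewer cells of a type and less RNA per cell cannot be told apart. The 4 leaf markers (*RBCS1A*, *LHCB1.1*, *LHCA1*, *RCA*) and the flower marker *AG* had no lowest value shared by 2 or more libraries, which says nothing of their level. The flower markers *AP3* and *PI* were above such a shared value in 9 and 16 of 42 libraries. The root marker *COBL9* was above it in 5, among them all 3 WT IDL libraries at 6 d (2.34 to 3.37). It was thus called higher there against illuminated leaves (3.32 ± 0.33) and lower in the mutant at 6 d (-3.32 ± 0.45). *RPN12a* itself was higher in the mutant at all 5 times, by 1.37 to 2.11. Between 5215 and 6408 genes per library sat at a lowest value that libraries shared. The third WT light library at 6 h stood apart, with an SD of the members' deviations from their group means of 0.844 against a median of 0.293 over libraries. The second *rpn12a-236* IDL library at 6 d came next with 0.562, and results that rest on either are also given without it. *ATG18e* (AT5G05150) was at its lowest value, -0.22, in 40 of 42 libraries, with 4.34 in the third *rpn12a-236* library at 0 d and 4.50 in the third at 6 d, so it was not tested. The other 29 members entered every fit.

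**Figure D1:**
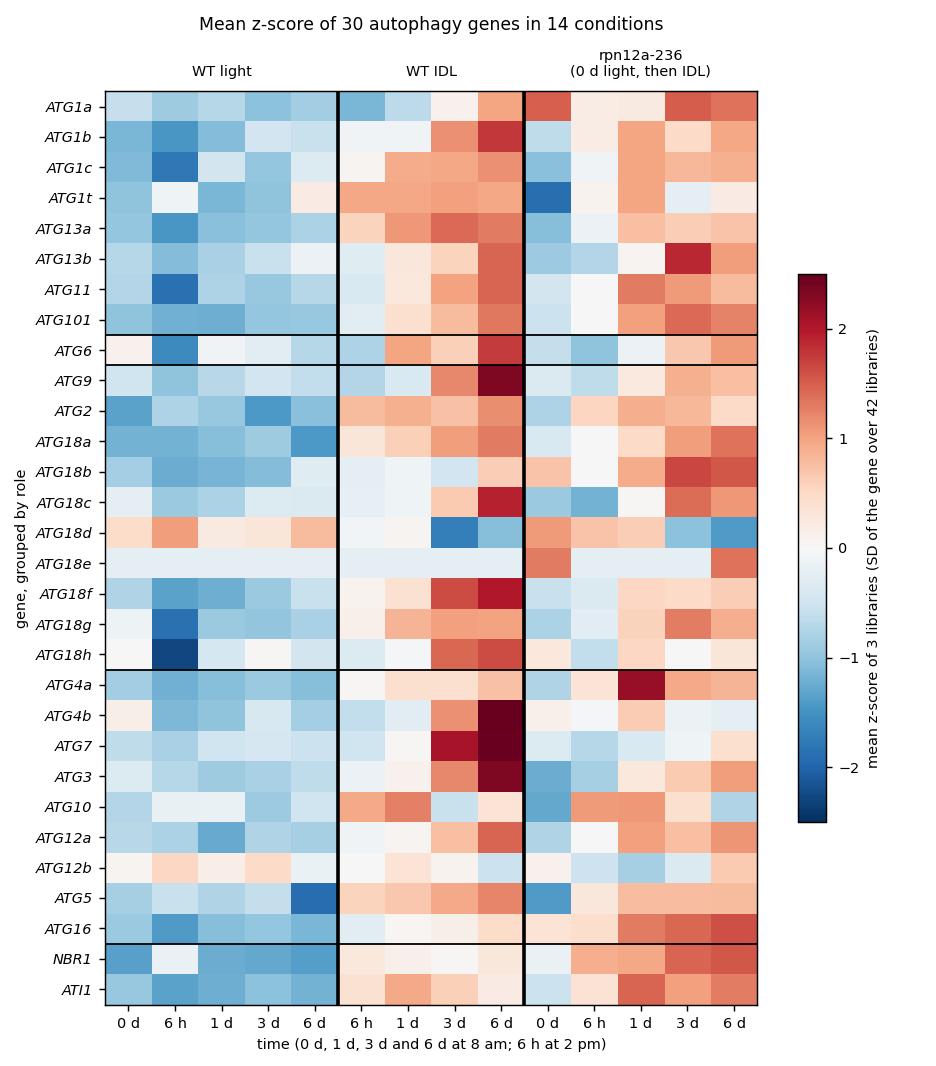
Mean z-score of each of the 30 genes (rows, grouped by role) in the 14 conditions (columns, in order of time within WT light, WT IDLs and *rpn12a-236*), each the mean of 3 libraries, with red above and blue below the gene's own mean. The WT light columns are mostly blue and the IDL columns turn red with time, with *ATG18d* running the other way.

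Darkening raised most of the machinery in WT leaves. Against illuminated leaves of the same time, 15 of 29 members were higher at 6 h, 16 after 1 d, 21 after 3 d and 24 after 6 d, and the median difference over the members grew from 1.08 and 1.12 to 1.56 and 2.11. *ATG18d* was lower at 3 d and 6 d and no other member was lower at any time. Over all genes tested the share called higher was 18.1%, 18.7%, 20.8% and 22.1% at the 4 times, the share called lower 18.4%, 22.3%, 24.7% and 25%, and the share in either direction 36.5%, 40.9%, 45.5% and 47.2%, with median differences near 0. The IDL and light libraries of the same time did not overlap for 45.9%, 56.8%, 62.9% and 63.4% of all genes. By role at 6 d, 7 of 8 kinase complex genes, *ATG6*, 7 of 9 membrane delivery genes, 7 of 9 conjugation genes and both receptors were higher. The mean z-score over the 29 members lay between -0.99 and -0.65 in the 5 WT light conditions and went from -0.04 at 6 h to 0.35, 0.69 and 1.19 in the IDLs. Leaf markers moved with this comparison: the summed z-score of the 4 genes was 3.20 to 4.71 in WT light libraries other than those at 6 h, 0.63 to 1.90 in those at 6 h, and fell to between -6.90 and -5.68 in the 6 d IDLs. Phloem markers (*SUC2*, *AHA3*, *SWEET11* and *SWEET12*) stood at 2.28 to 4.42 summed in the 6 d IDLs against -3.82 to -2.12 in the light. Of the 4 guard cell markers, 1 was higher and 3 were lower at 3 d, at -3.60 to 0.02 summed against 0.52 to 3.90. At 6 d their sums overlapped (2.22 to 4.33 against 1.06 to 4.14). The trichome marker *GL2* was called lower at 1 d (-2.01 to -1.06 against 0.61 to 2.06) and at 3 d (-1.21 to -0.97 against 0.54 to 1.26). The part of any of these cells in the result was not tested.

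Members differed in the time of their first call, which marks where a gene passed the threshold. Of the 26 called higher at some time, 15 were already called at 6 h, when 18.1% of all genes were. Another 3 were first called at 1 d, 4 at 3 d and 4 at 6 d. Of those called at 6 h, all but *ATG1c*, *ATG18g* and *ATI1* were further from the light leaves at 6 d than at 6 h. The share of all genes with each timing was not counted. Higher at all 4 times were 13: *ATG1c*, *ATG13a*, *ATG11* and *ATG101* of the kinase complex, *ATG2*, *ATG18a*, *ATG18f* and *ATG18g* of membrane delivery, *ATG4a*, *ATG5* and *ATG16* of conjugation, and both *NBR1* and *ATI1*. First higher at 3 d or 6 d were 8, among them *ATG1a*, *ATG9*, *ATG4b* and *ATG7*. Of the others, *ATG13b*, *ATG6*, *ATG18c* and *ATG12a* were called at 6 d alone, *ATG3* from 1 d onward, *ATG1t* at 1 d and 3 d, and *ATG18b* at 1 d alone. *ATG10* and *ATG12b* were not called at any of the 4 times.

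**Figure D2:**
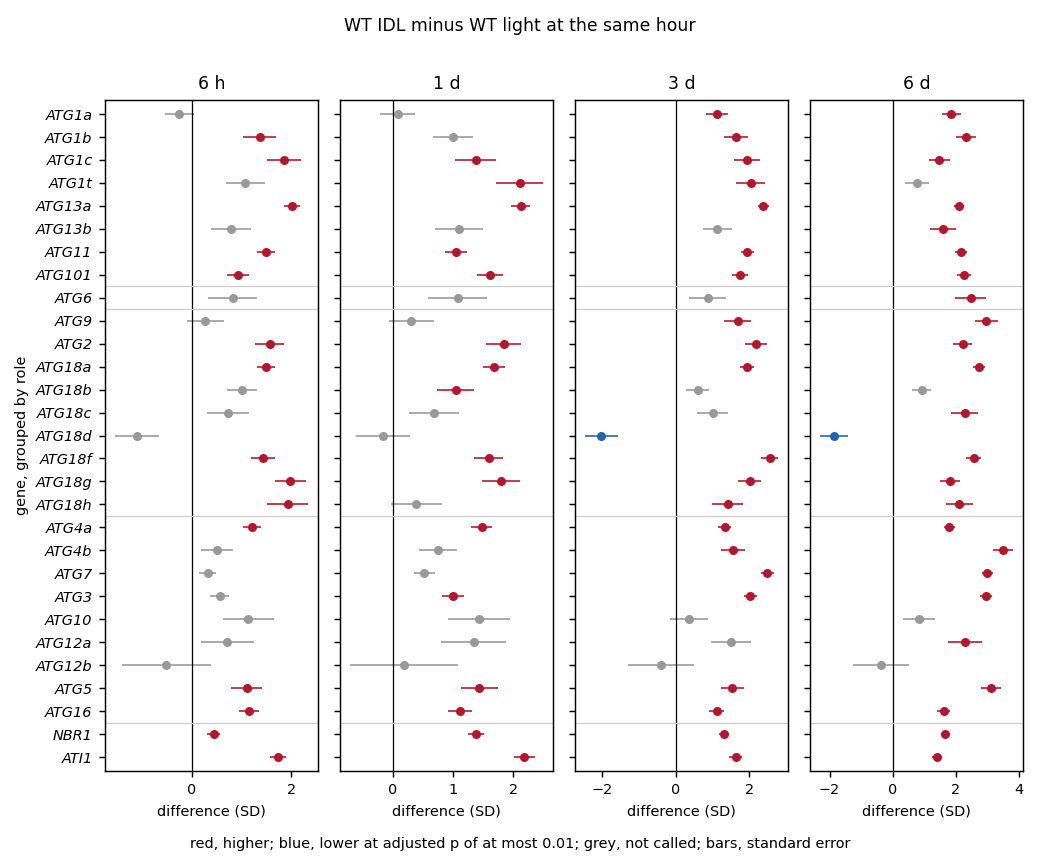
Difference in z-score between WT IDLs and WT illuminated leaves at 6 h, 1 d, 3 d and 6 d (panels) for the 29 members tested, in SDs of the gene; points are the differences of means of 3 libraries each, bars their standard errors, and red and blue mark genes called higher and lower. *ATG13a* is near 2 in all 4 panels, *ATG7* and *ATG4b* move from below 1 to 3.00 and 3.50, and *ATG18d* lies left of 0 at 3 d and 6 d.

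In the kinase complex, *ATG13a* (AT3G49590), the regulatory subunit that binds ATG1, gave the largest difference at 6 h, 1 d and 3 d. Its 6 h libraries stood at 0.69, 0.30 and 0.67 in IDLs against -1.75, -1.19 and -1.44 in the light, and its 3 d libraries at 1.37, 1.43 and 1.43 against -0.94, -1.04 and -0.93. The 12 WT IDL libraries of *ATG13a* (0.30 to 1.43, median 1.26) did not overlap the 15 WT light libraries (-1.75 to -0.69, median -1.01). The differences were 2.01 ± 0.16 (SE, n = 3 against 3) at 6 h with an adjusted p of 3.7e-09 (limma), and 2.12, 2.38 and 2.09 at the 3 later times. At 6 d *ATG1b* (AT3G53930), one of 3 full-length kinase genes, was the furthest, at 1.53, 1.86 and 1.92 in IDLs against -0.51, -0.11 and -1.02 in the light, a difference of 2.32 ± 0.33 (limma adjusted p = 3.1e-06). *ATG1c* (AT2G37840), another kinase gene, ran from 0.05 to 1.25 in WT IDLs (median 0.95) and from -3.11 to 0.07 in WT light (median -0.84), with differences of 1.86, 1.38, 1.93 and 1.48, of which the 6 h value was 1.21 without the light library that stood apart (-3.11). *ATG11* (AT4G30790), a scaffold of the complex, ran from -0.55 to 1.49 (median 0.73) against -2.37 to -0.65 (median -0.81), and *ATG101* (AT5G66930), which holds ATG13 in the complex, from -0.58 to 1.50 (median 0.68) against -1.44 to -0.57 (median -1.04). For *ATG11* the differences were 1.50, 1.04, 1.95 and 2.16, and for *ATG101* 0.92, 1.61, 1.75 and 2.27, so both were furthest from the light leaves at 6 d. *ATG1a* (AT3G61960) took a different course, with differences of -0.26 ± 0.30 and 0.08 ± 0.30 at 6 h and 1 d that were not called and 1.12 and 1.86 at 3 d and 6 d that were.

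*ATG6* (AT3G61710), the plant counterpart of yeast Vps30 and mammalian Beclin 1, was called in WT IDLs only at 6 d. Its libraries then stood at 1.62, 1.78 and 1.84 against -0.45, -1.44 and -0.27 in the light, without overlap, a difference of 2.47 ± 0.49 (limma adjusted p = 0.00019). At the 3 earlier times its difference was 0.82, 1.07 and 0.87, and the groups overlapped at 6 h and 3 d. Among the 5 other genes of the lipid kinase complex that were listed, 3, 3, 4 and 4 were higher at the 4 times and none was lower, with *VPS34*, the catalytic subunit, at 2.83 ± 0.26 at 6 d. Of all genes, 18.1%, 18.7%, 20.8% and 22.1% were higher at these times.

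Among the membrane delivery genes the furthest member changed with time. At 6 h it was *ATG18g* (AT1G03380) (0.33, -0.15 and 0.19 in IDLs against -1.57, -1.07 and -2.92 in the light, a difference of 1.98 ± 0.31), where the library at -2.92 is the one that stood apart. Without it *ATG18a* was the furthest, at 1.59 beside 1.45 for *ATG18g*. At 1 d it was *ATG2* (AT3G19190) (1.04, 0.59 and 1.05 against -1.02, -0.87 and -0.97, a difference of 1.84 ± 0.29). At 3 d it was *ATG18f* (AT5G54730) (1.54, 1.71 and 1.62 against -0.88, -1.01 and -0.87, a difference of 2.54 ± 0.24). In each of these 3 comparisons every IDL library lay above every light library. At 6 d it was *ATG9* (AT2G31260), which encodes a transmembrane protein, at 2.13, 2.38 and 2.51 against -0.65, -0.79 and -0.43, again without overlap. Its difference was 2.96 ± 0.37 (limma adjusted p = 6.7e-07). *ATG9* had not been called at 6 h or 1 d, where its difference was 0.27 and 0.31. *ATG18a* (AT3G62770) was called throughout, from 1.49 at 6 h to 2.72 at 6 d, and its 12 IDL libraries (0.12 to 1.32, median 0.85) lay above all 15 light libraries (-1.59 to -0.59, median -1.10).

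*ATG18d* (AT3G56440) moved against its paralogues. In WT IDLs it stood at -1.23, -1.55 and -2.33 at 3 d and at -1.33, -0.71 and -1.18 at 6 d, while the light libraries stood at -0.25, 0.06 and 1.11 and at 1.34, -0.09 and 1.14. The groups did not overlap at either time, and the differences were -2.01 ± 0.45 and -1.87 ± 0.45 (limma adjusted p = 0.00065 and 0.0012). At the same times *ATG18a*, *ATG18f*, *ATG18g* and *ATG18h* (AT1G54710) were all called higher, *ATG18c* (AT2G40810) at 6 d and *ATG18b* (AT4G30510) at neither. The second WT IDL library at 6 d (-0.71) was closest to the light leaves. Of the 31-base words in the transcripts of *ATG18d*, 1.62% also occurred in another gene, the highest share of any member.

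In the conjugation pathway *ATG4a* (AT2G44140), one of the pair of proteases that process ATG8, led at 6 h and 1 d. Its 12 WT IDL libraries (-0.35 to 0.82, median 0.39) lay above the 15 light libraries (-1.41 to -0.69, median -1.03), with differences of 1.22 ± 0.18 at 6 h and 1.47, 1.33 and 1.79 at the 3 later times. Its lead at 6 h rested on the light library that stood apart, without which *ATG5* was at 1.65 and *ATG12a* at 1.62 beside 1.11 for *ATG4a*. *ATG7* (AT5G45900), which activates both ATG8 and ATG12, led at 3 d with 1.69, 2.25 and 2.26 in IDLs against -0.31, -0.54 and -0.42 in the light (2.49 ± 0.18, limma adjusted p = 2.5e-10). *ATG4b* (AT3G59950), the other protease gene, led at 6 d with 2.28, 2.68 and 2.96 against -0.78, -0.69 and -1.10 (3.50 ± 0.31, adjusted p = 5.2e-09 by limma). Neither group pair overlapped. *ATG5* (AT5G17290) and *ATG16* (AT5G50230), partners in the assembly that places ATG8 on the membrane, were called at all 4 times, *ATG5* from 1.11 at 6 h to 3.11 at 6 d and *ATG16* from 1.15 at 6 h to 1.61 at 6 d. The 12 IDL libraries of *ATG16* ran from -0.52 to 0.63 (median 0.10) against -1.55 to -0.62 in the light (median -1.17). Those of *ATG5* ran from 0.45 to 1.36 (median 0.84) against -2.31 to 0.53 (median -0.74), the one at 0.53 being the library that stood apart. Some conjugation, kinase, membrane delivery and receptor genes overlap a gene on the opposite strand. The labels name no step that keeps strand, so the reads of such a pair may not have been told apart. Among such neighbours, that of *ATG4a* (*AT2G44130*, 1445 bases) was higher in the IDLs at all 4 times (1.39 to 2.02). That of *ATG11* (*AT4G30780*, 690 bases) was higher at 6 h, 3 d and 6 d (2.16, 1.30 and 2.99). That of *ATG5* (*AT5G17280*, 597 bases) was higher at 6 d (3.37). That of *ATG4b* (*AT3G59940*, 160 bases) was higher at 6 h, 1 d and 3 d (1.61, 3.08 and 1.83). The neighbour of *NBR1* (*AT4G24700*, 101 bases) was lower at all 4 times (-2.17 to -1.38). *ATG12b* (AT3G13970) was not called in any comparison and ranged from -2.15 to 1.85 with replicates of WT at 0 d at 0.50, 1.85 and -2.15. *ATG10* (AT3G07525) was not called against illuminated leaves of the same time, with differences of 0.36 to 1.44.

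Both receptors were higher in WT IDLs at all 4 times. *ATI1* (AT2G45980), which binds ATG8 and marks bodies that carry plastid and ER proteins, stood at 1.18, 0.77 and 0.92 at 1 d against -1.26, -1.17 and -1.25 in the light, its largest difference at 2.19 ± 0.17 (limma adjusted p = 9.2e-10). Its differences were 1.74 at 6 h, 1.62 at 3 d and 1.40 at 6 d, and over all times the IDL libraries (0.11 to 1.18, median 0.53) lay above the light libraries (-1.54 to -0.89, median -1.16). *NBR1* (AT4G24690), the receptor for ubiquitylated protein aggregates, stood at 0.30, 0.35 and 0.20 at 6 d against -1.39, -1.38 and -1.38, a difference of 1.67 ± 0.13. Its difference was smallest at 6 h, 0.44 ± 0.13, where its light libraries had themselves risen.

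Illuminated WT leaves were also compared between harvest hours, which here differ in sampling occasion as well. Between 0 d at 8 am and the 6 h leaves at 2 pm, 1 member was higher and 4 were lower, against 10.3% and 13.4% of all genes, or 23.7% in either direction. The libraries of these groups did not overlap for 39.3% of all genes. *NBR1* went from -1.31, -1.29 and -1.49 to -0.26, -0.03 and -0.23, a rise of 1.19 ± 0.13 (limma adjusted p = 5.3e-07) with no overlap. *ATG18h*, a member of the ATG18 family, fell by the most, from 0.35, -0.03 and -0.26 to -2.14, -1.06 and -3.64 (-2.30 ± 0.42), again with no overlap. *ATG18g* (-1.73), *ATG11* (-1.14) and *ATG4b* (-1.27) were also lower. The libraries of *ATG18g* went from 0.18, -0.19 and -0.36 to -1.57, -1.07 and -2.92, those of *ATG11* from -0.65, -0.73 and -0.81 to -1.84, -1.40 and -2.37, and those of *ATG4b* from 0.36, -0.0070 and 0.11 to -0.94, -0.67 and -1.74, none overlapping. At 1 d, 3 d and 6 d no member was called against 0 d by limma, with 3, 2 and 5 at an unadjusted p under 0.05 and 3.23%, 1.08% and 1.27% of all genes called, and every alternative fit that kept all libraries also gave 0. Without the third light library at 6 h, *ATG18h*, *ATG18g* and *ATG11* were still lower (-1.62, -1.20 and -0.89), *ATG4b* was not called (-0.96, adjusted p = 0.0265) and *ATG2* was called higher (1.12). Without that library the IDLs at 6 h again gave 15 members higher than light, but *ATG1b* (0.93, adjusted p = 0.0149) and *NBR1* (0.41, adjusted p = 0.0205) were lost and *ATG1t* (AT1G49180) (1.48) and *ATG12a* (AT1G54210) (1.62) were gained, all by limma.

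Against their own 0 d leaves, the WT IDLs had 14, 17, 22 and 26 members higher and 0, 0, 1 and 1 lower at the 4 times, with 39.1%, 41.7%, 46.8% and 50% of all genes called in either direction. Over all genes, 18.7%, 19.7%, 22.2% and 23.8% were called higher and 20.4%, 22%, 24.6% and 26.2% lower. These comparisons share the WT IDL libraries with those above and cross the harvest hour at 6 h. *NBR1* then rose by 1.63 ± 0.14 at 6 h and *ATG10*, the conjugating enzyme for ATG12, was called at 6 h and 1 d (1.69 ± 0.49 and 2.00 ± 0.49). Its libraries went from -0.60, -0.03 and -1.57 at 0 d to 0.53, 1.14 and 1.18 at 6 h and 1.42, 0.74 and 1.64 at 1 d. At 3 d the libraries of *ATG10* were back at -0.94, -0.43 and -0.28 and were not called. *ATG1t*, which has the shortest coding sequence of the 4 kinase genes (1227 bases against 1881 to 2202), was the furthest of its complex at 6 h, going from -1.41, -0.25 and -1.37 to 0.80, 1.32 and 0.77 (1.98 ± 0.33), and was called at all 4 times. *ATG2* led membrane delivery at 6 h and 1 d, from -1.47, -1.27 and -1.28 to 0.78, 0.71 and 0.88 and to 1.04, 0.59 and 1.05 (2.13 and 2.23). At 6 d *ATG7* had gone the furthest of all members, from -0.73, -0.56 and -0.60 to 2.38, 2.49 and 2.51 (3.09 ± 0.20, limma adjusted p = 7.9e-12).

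The mutant was compared with WT at each time. Between genotypes, 5 members were higher and 1 lower at 0 d, 3 and 1 at 6 h, 6 and 0 at 1 d, 5 and 6 at 3 d, and 3 and 7 at 6 d. Over all genes 7.93%, 4.73%, 11%, 13.4% and 17.2% were called higher and 9.26%, 6.66%, 11.4%, 14.2% and 17.9% lower, that is 17.2%, 11.4%, 22.5%, 27.6% and 35.1% in either direction, so the share of members called (6, 4, 6, 11 and 10 of 29) was near that of all genes, with the widest gap at 3 d. Of the calls, 5 of 6 were higher at 0 d and 6 of 6 at 1 d, while 7 of 10 were lower at 6 d, a shift that was not tested. The libraries of the genotypes did not overlap for 42.3%, 32.3%, 42.2%, 49.7% and 49.5% of all genes in order of time. In all, 10 members were higher at 1 or more times, 8 were lower at 1 or more times, no member was both, and 11 were never called (*ATG1c*, *ATG101*, *ATG6*, *ATG2*, *ATG18c*, *ATG18d*, *ATG18g*, *ATG10*, *ATG12a*, *ATG12b* and *ATG5*, with differences from -1.17 to 1.20). The mean over the 29 members was -0.46 in *rpn12a-236* at 0 d (WT, -0.65), 0.67 at 1 d (WT, 0.35), 0.75 at 3 d (WT, 0.69) and 0.76 at 6 d (WT, 1.19). Phloem markers moved with the genotype: the summed z-score of *SUC2*, *AHA3*, *SWEET11* and *SWEET12* (none with a lowest value that libraries shared) was -2.31 to -0.90 in the mutant at 0 d against -4.12 to -2.55 in WT. It was 2.60 to 4.33 in mutant IDLs at 1 d and 2.39 to 3.91 at 3 d against -1.40 to -0.55 and -1.20 to -0.50 in WT. At 6 d they overlapped (0.86 to 3.94 against 2.28 to 4.42). Guard cell markers (*MYB60*, *HT1*, *KAT1* and *SLAC1*) summed to 1.26 to 4.01 in the mutant at 0 d against -2.05 to 0.83, and to 0.25 to 2.60 at 1 d against -5.14 to -0.64. At 6 d they were below WT, at -0.97 to 1.22 against 2.22 to 4.33. Leaf markers were higher in mutant IDLs at 1 d (0.16 to 1.1 against -2.74 to -0.88 summed), at 3 d (-2.91 to -2.69 against -5.35 to -4.18) and at 6 d (-5.44 to -3.93 against -6.90 to -5.68). The part of these cells in the differences was not tested.

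**Figure D3:**
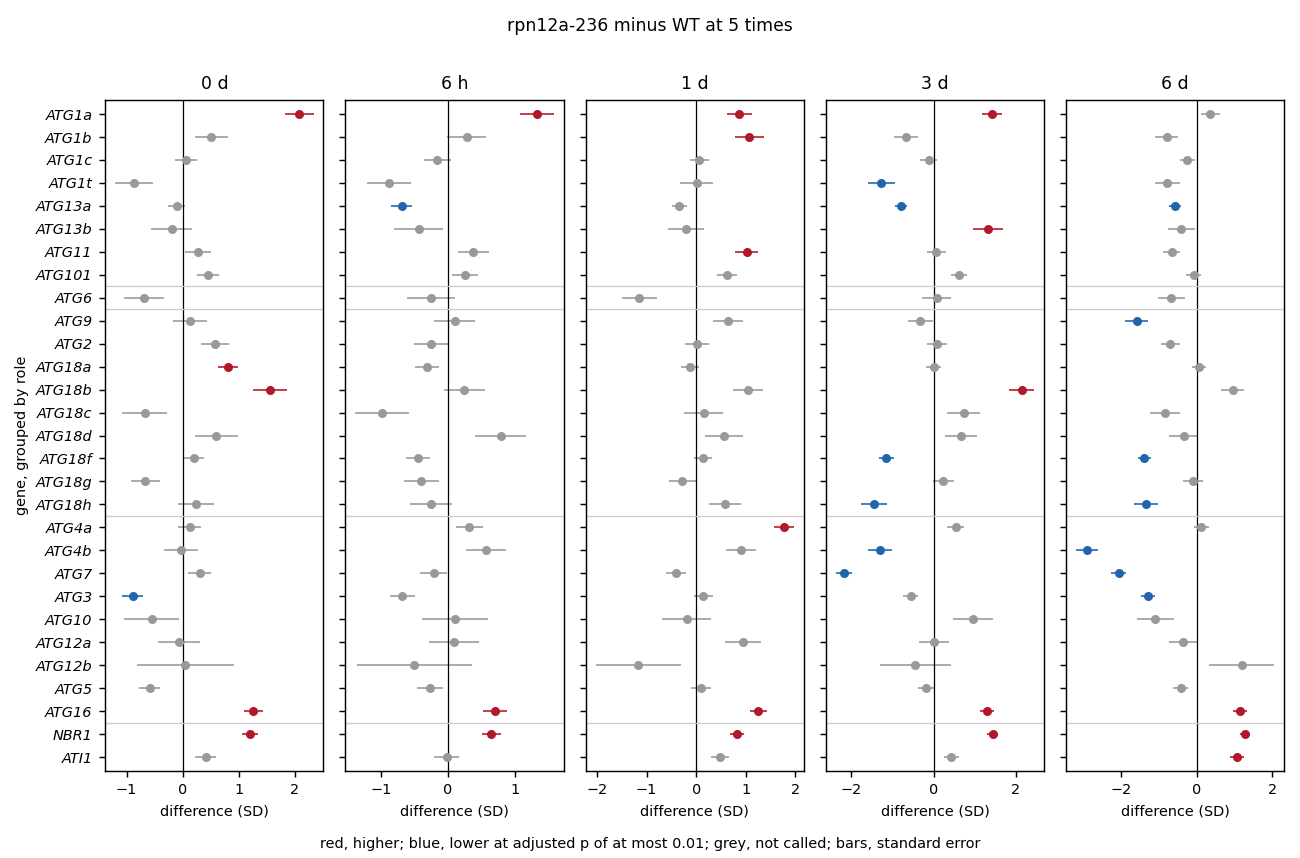
Difference in z-score between *rpn12a-236* and WT at 0 d (light) and at 6 h, 1 d, 3 d and 6 d (IDLs) for the 29 members tested, in SDs of the gene; points are differences of means of 3 libraries each, bars their standard errors, and red and blue mark genes called higher and lower. *ATG16* and *NBR1* are red in all 5 panels, and the blue points go from 1 at 0 d to 7 at 6 d.

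*ATG16* and *NBR1* were the members higher in the mutant at all 5 times. For *ATG16* (chr5:20448310-20451062, minus strand), whose protein joins ATG12-ATG5 into the active assembly, the mutant libraries stood at 0.29, 0.17 and 0.54 at 0 d against -0.83, -0.77 and -1.17 in WT. The mutant stood at 0.60, 0.37 and 0.32 against -0.10, -0.52 and -0.18 at 6 h, and at 1.50, 1.04 and 1.38 against 0.18, -0.11 and 0.08 at 1 d. At 3 d it stood at 1.68, 1.25 and 1.41 against 0.08, 0.25 and 0.12, and at 6 d at 1.56, 1.61 and 1.66 against 0.24, 0.53 and 0.63. The groups did not overlap at any time, and the illuminated mutant leaves at 0 d overlapped the WT leaves after 6 d of darkness. The differences were 1.26 ± 0.17 at 0 d (limma adjusted p = 9.5e-06), and 0.70, 1.25, 1.30 and 1.14 at the 4 later times. For *NBR1* (chr4:12741032-12744670, plus strand) the mutant stood at -0.04, -0.20 and -0.25 at 0 d against -1.31, -1.29 and -1.49, at 0.87, 0.73 and 1.15 at 6 h against 0.23, 0.12 and 0.46, and at 0.85, 1.00 and 1.06 at 1 d against 0.27, -0.07 and 0.21. It then stood at 1.43, 1.42 and 1.53 at 3 d against 0.031, 0.0022 and 0.031, and at 1.59, 1.54 and 1.55 at 6 d against 0.30, 0.35 and 0.20. No mutant library of *NBR1* overlapped WT at the same time, and the differences were 1.20 ± 0.14 (limma adjusted p = 1.0e-06), 0.65, 0.83, 1.44 and 1.28 in order of time. At 6 h, the differences of both genes were at their smallest and lost their call without any of 4 libraries for *ATG16* and 2 for *NBR1*, taken one at a time.

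Because these are the members that stood higher in every comparison of the genotypes, the sequence just before the annotated start of each gene is shown, as far as it lies outside the neighbouring gene (TAIR10.1, credited to RefSeq, read 5′ to 3′ on the gene's strand). Capitals mark a G-box (CACGTG), the core of a W-box (TTGAC) or the element TGGGC on either strand, motifs that do not overlap here. The *ATG16* stretch is chr5:20451063-20451227 (minus strand, 165 bases) and the *NBR1* stretch chr4:12740782-12741031 (plus strand, 250 bases).
ATG16: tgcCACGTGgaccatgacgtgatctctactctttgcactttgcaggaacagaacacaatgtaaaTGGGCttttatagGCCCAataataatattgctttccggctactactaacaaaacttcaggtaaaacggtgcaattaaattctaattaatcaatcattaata
NBR1: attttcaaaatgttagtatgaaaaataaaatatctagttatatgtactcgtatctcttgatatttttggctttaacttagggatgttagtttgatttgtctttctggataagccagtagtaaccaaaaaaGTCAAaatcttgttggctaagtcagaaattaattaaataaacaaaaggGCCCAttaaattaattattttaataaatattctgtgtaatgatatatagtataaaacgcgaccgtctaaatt
The *ATG16* stretch holds 1 G-box and 2 TGGGC elements, and the *NBR1* stretch 1 W-box core and 1 TGGGC element. In windows of 250 bases before the start, CACGTG occurred in 6.49% of 27443 protein-coding genes and in 4 of the 30 members, TTGAC in 44.9% and in 10, and TGGGC in 22.7% and in 11. A match is a description of the letters only.

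*ATG1a*, a kinase gene, was higher in the mutant at 0 d, 6 h, 1 d and 3 d. At 0 d it stood at 1.85, 1.35 and 1.30 against -0.35, -0.80 and -0.60 in WT, the largest difference of any member at that time (2.08 ± 0.25, limma adjusted p = 1.5e-06). The difference was 1.33 at 6 h, 0.87 at 1 d and 1.42 at 3 d, with libraries of -0.03, -0.03 and 0.60 against -1.26, -1.51 and -0.67 at 6 h and of 1.54, 1.72 and 1.30 against -0.08, 0.19 and 0.19 at 3 d, none overlapping. At 6 d WT had come up to 0.84, 0.93 and 1.21, close to the mutant at 1.39, 1.28 and 1.39, and the difference of 0.36 ± 0.25 was not called (adjusted p = 0.27 by limma). The call at 1 d was lost without any of 5 libraries in turn.

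**Figure D4:**
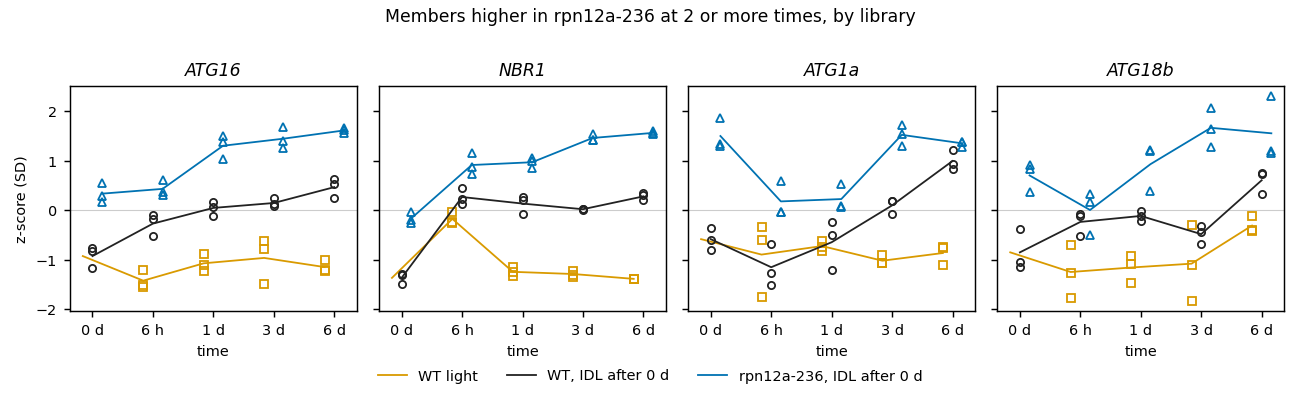
z-scores by library (points) and means of 3 libraries (lines) over time in WT light, WT (IDLs after 0 d) and *rpn12a-236* (IDLs after 0 d) for members higher in the mutant; the vertical axes are in SDs of each gene. For *ATG16* and *NBR1* the mutant points lie above the WT IDL points at each time, while for *ATG1a* WT comes within 0.36 of the mutant at 6 d.

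*ATG18b*, of the ATG18 family, was higher at 0 d (0.91, 0.84 and 0.36 against -0.37, -1.14 and -1.04, a difference of 1.55 ± 0.31) and at 3 d (2.07, 1.64 and 1.28 against -0.32, -0.44 and -0.68, a difference of 2.15 ± 0.31). The groups did not overlap at either time, while at 1 d and 6 d the differences of 1.04 and 0.95 missed the threshold (adjusted p = 0.011 and 0.014 by limma). *ATG18a*, the paralogue that is required for autophagy in Arabidopsis, was higher at 0 d by 0.80 ± 0.18, a call that any of 2 libraries removed when left out.

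At 1 d the conjugation gene *ATG4a* was furthest from WT. Its libraries stood at 2.43, 1.88 and 2.23 in the mutant against 0.57, 0.39 and 0.27 in WT, without overlap, the highest *ATG4a* values of all 42 libraries (1.77 ± 0.20, limma adjusted p = 7.2e-07). At 0 d, 6 h, 3 d and 6 d the difference was 0.12, 0.32, 0.54 and 0.13 and was not called. *AT2G44130*, which overlaps *ATG4a* on the opposite strand, was also higher at 1 d (0.93 ± 0.17). *ATG11* (1.02 ± 0.23) and *ATG1b* (1.07 ± 0.29) of the kinase complex were higher at 1 d as well, with libraries of 1.13, 1.37 and 1.38 against 0.54, 0.06 and 0.21 for *ATG11* and of 0.90, 0.81 and 1.24 against 0.14, -0.21 and -0.20 for *ATG1b*, no group overlapping. The *ATG1b* call was lost without any of 5 libraries in turn and that of *ATG11* without 1.

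At 3 d or 6 d 8 members were lower, 6 and 7 of 29 at the separate times beside 14.2% and 17.9% of all genes. The 5 that were lower at both times were *ATG13a*, *ATG18f*, *ATG18h*, *ATG4b* and *ATG7*. *ATG7* (chr5:18615175-18618597, plus strand) was furthest at 3 d: its mutant libraries stood at 0.08, 0.03 and -0.45 against 1.69, 2.25 and 2.26 in WT, and at 6 d at 0.49, 0.42 and 0.30 against 2.38, 2.49 and 2.51. The groups were far apart at both times, with differences of -2.18 ± 0.20 and -2.06 ± 0.20 (limma adjusted p = 1.6e-08 and 2.0e-08). *ATG4b* (chr3:22144280-22147712, minus strand) was furthest at 6 d, at -0.0014, -0.43 and -0.32 against 2.28, 2.68 and 2.96, a difference of -2.89 ± 0.30 (adjusted p = 4.0e-08 by limma). At 3 d its mutant libraries were at 0.16, -0.17 and -0.44 against 0.38, 1.35 and 1.72, without overlap but with a wider WT group (-1.30 ± 0.30).

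**Figure D5:**
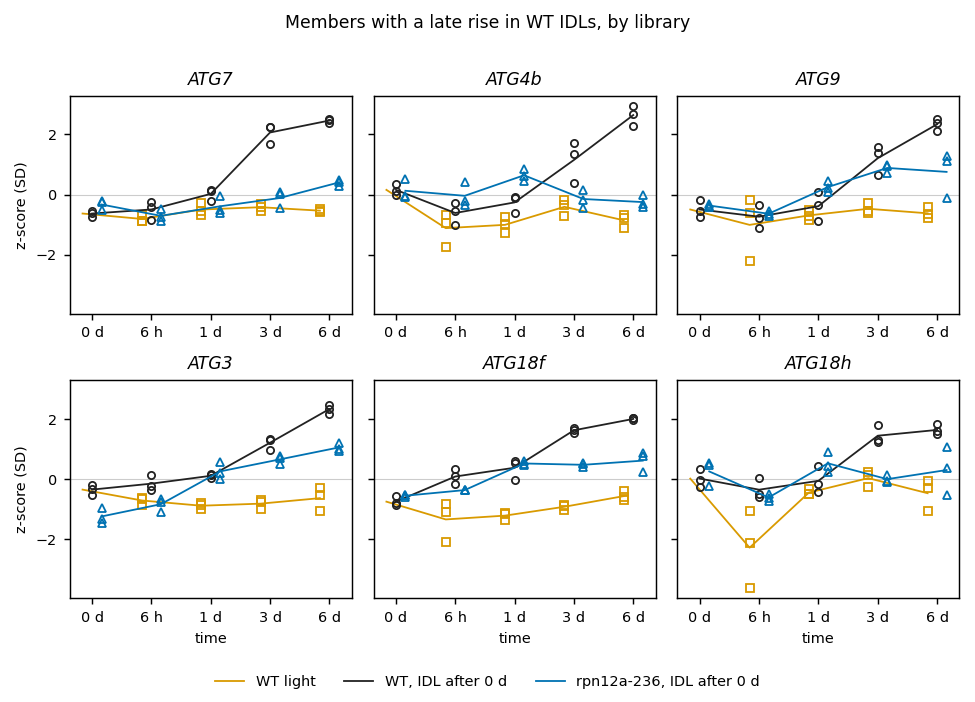
z-scores by library (points) and means of 3 libraries (lines) over time for *ATG7*, *ATG4b*, *ATG9*, *ATG3*, *ATG18f* and *ATG18h* in WT light, WT (IDLs after 0 d) and *rpn12a-236* (IDLs after 0 d), in SDs of each gene. WT IDLs climb at 3 d and 6 d in each panel, and the mutant stays below them at 6 d, with a difference of -2.89 for *ATG4b* and -2.06 for *ATG7*.

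The stretches before *ATG7* (chr5:18614964-18615174, plus strand, 211 bases) and *ATG4b* (chr3:22147713-22147962, minus strand, 250 bases) are shown as those of the 2 members furthest below WT, with the same motifs in capitals.
ATG7: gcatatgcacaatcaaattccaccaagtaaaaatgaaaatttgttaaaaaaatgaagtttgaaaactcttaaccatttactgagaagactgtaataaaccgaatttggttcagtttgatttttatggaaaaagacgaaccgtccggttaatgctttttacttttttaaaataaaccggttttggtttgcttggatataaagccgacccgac
ATG4b: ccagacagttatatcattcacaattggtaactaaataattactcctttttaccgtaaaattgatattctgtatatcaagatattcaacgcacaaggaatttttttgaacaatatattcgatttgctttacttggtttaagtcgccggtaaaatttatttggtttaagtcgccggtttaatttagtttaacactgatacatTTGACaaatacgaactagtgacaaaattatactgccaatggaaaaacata
The *ATG7* stretch held none of the 3 motifs and the *ATG4b* stretch 1 W-box core. Upstream of *ATG7* on the same strand lies *SAG12*, a protease gene used as a marker of leaf senescence. *SAG12* was lower in the mutant at 3 d and 6 d (-1.99 ± 0.17 and -1.82 ± 0.17), and higher in WT IDLs than in the light (2.32 and 2.73). Whether the 2 genes share anything beyond their place was not tested. *AT3G59940*, which overlaps *ATG4b* on the opposite strand, was higher in the mutant at 6 d (1.07 ± 0.19), the other direction.

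The membrane delivery genes followed with *ATG18f*, *ATG18h* and *ATG9*. *ATG18f* stood in the mutant at 0.55, 0.50 and 0.39 at 3 d against 1.54, 1.71 and 1.62 and at 0.75, 0.22 and 0.87 at 6 d against 2.02, 2.02 and 1.96 (-1.15 and -1.39). *ATG18h* stood at -0.05, 0.15 and -0.10 at 3 d against 1.23, 1.29 and 1.81 and at 0.36, -0.53 and 1.08 at 6 d against 1.49, 1.59 and 1.82 (-1.44 and -1.33). *ATG9* stood at 1.27, -0.11 and 1.1 at 6 d against 2.13, 2.38 and 2.51, a difference of -1.58 ± 0.30 (limma adjusted p = 0.00014). None of these groups overlapped, but at 6 d the second mutant library, which stood apart, was the lowest for all 3 genes. Without that library the difference of *ATG9* was -1.15 and still called, *ATG13a* and *ATG18h* were not called, and *ATG18b* (1.14) and *ATG5* (-0.69) were, leaving 4 members higher and 6 lower.

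*ATG3* (AT5G61500), the conjugating enzyme for ATG8, was lower at 0 d (-1.32, -0.94 and -1.46 against -0.31, -0.20 and -0.53, a difference of -0.89 ± 0.19) and at 6 d (0.94, 1.21 and 1.01 against 2.18, 2.47 and 2.34, a difference of -1.28 ± 0.19), without overlap. *AT5G61490*, which overlaps *ATG3* by 40 bases on the opposite strand, was higher in the mutant at every time (1.93 to 2.28), the other direction. *ATG13a* was lower at 6 h, 3 d and 6 d (-0.69, -0.79 and -0.58). Its mutant libraries were at -0.16, -0.32 and 0.07 at 6 h and at 0.73, 0.59 and 0.82 at 6 d against 0.69, 0.30 and 0.67 and 1.29, 1.36 and 1.24, so the gap is small beside those of *ATG7* and *ATG4b* and its calls at 6 h and 6 d were lost without any of 4 and 3 libraries in turn. At 6 d the receptor *ATI1* was higher than WT (0.90, 1.47 and 1.46 against 0.26, 0.23 and 0.13, a difference of 1.07 ± 0.18), with *NBR1* and *ATG16* the other members still higher at that time.

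At 3 d, paralogues were called in opposite directions in 3 families. In the kinase family *ATG1a* was higher while *ATG1t* was lower (-0.31, -0.27 and -0.15 against 1.35, 0.61 and 1.12, a difference of -1.27 ± 0.33). Of the ATG13 pair *ATG13b* (AT3G18770) was higher (2.34, 1.44 and 1.87 against 1.07, 0.22 and 0.41, a difference of 1.32 ± 0.37) while *ATG13a* was lower (0.46, 0.74 and 0.65 against 1.37, 1.43 and 1.43). In the ATG18 family *ATG18b* was higher while *ATG18f* and *ATG18h* were lower. In each of these cases the groups did not overlap, and the calls of *ATG1t* and *ATG13b* were lost without any of 5 and 4 libraries in turn.

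The mutant's own time course was then set beside that of WT. Against their own 0 d leaves, 9, 18, 22 and 22 members were higher in mutant IDLs at 6 h, 1 d, 3 d and 6 d and 1 was lower at each time, with 34.9%, 43%, 46.7% and 50.7% of all genes called in either direction. Over all genes, 16.5%, 20.2%, 22% and 24% were called higher and 18.4%, 22.8%, 24.7% and 26.7% lower. The mutant's IDL and 0 d libraries did not overlap for 50.7%, 55.8%, 59.7% and 58.3% of all genes. At 6 d, 22 members were higher in both genotypes, 4 were called in WT alone (*ATG1a*, *ATG18b*, *ATG18h* and *ATG4b*) and 0 in the mutant alone. *ATG1a* fell in the mutant at 6 h (-1.32 ± 0.25) and 1 d (-1.27 ± 0.25), going from 1.85, 1.35 and 1.30 at 0 d to 0.09, 0.53 and 0.06 at 1 d, whereas in WT it rose at 6 d by 1.58 ± 0.25. *ATG18d* fell in both genotypes, in the mutant from 1.21, 1.22 and 0.76 at 0 d to -1.70, -1.21 and -1.33 at 6 d (-2.48 ± 0.39) and in WT from 0.71, 0.80 and -0.11 to -1.33, -0.71 and -1.18 (-1.54 ± 0.39). The largest rise in the mutant at 1 d was that of *ATG4a* (2.94 ± 0.20), from -0.75, -0.80 and -0.71 to 2.43, 1.88 and 2.23, and at 3 d that of *ATG13b* (2.80 ± 0.37), from -0.51, -0.49 and -1.75 to 2.34, 1.44 and 1.87. At 6 h *ATG10* rose by the most in the mutant (2.34 ± 0.49), from -0.51, -1.39 and -1.97 to 1.68, 0.20 and 1.28. *ATG1t* went from -1.61, -2.32 and -1.72 at 0 d to 0.12, 0.19 and -0.06 at 6 h and to 1.40, 0.93 and 0.61 at 1 d (1.97 and 2.86). None of these groups overlapped. *ATG18c* led membrane delivery at 3 d, from -1.40, -0.28 and -1.09 to 1.77, 1.35 and 1.07 (2.32 ± 0.40), and *ATG5* led conjugation at 3 d, from -1.63, -1.25 and -1.38 to 0.93, 0.68 and 0.71 (2.19 ± 0.19). At 6 d *ATG3* led conjugation (2.30 ± 0.19), from -1.32, -0.94 and -1.46 to 0.94, 1.21 and 1.01, although it stayed below WT. Called at all 4 times in both genotypes were *ATG1c*, *ATG1t*, *ATG13a*, *ATG2*, *ATG4a*, *ATG5*, *NBR1* and *ATI1*. *ATG6* was called in the mutant at 3 d (from -0.57, -0.51 and -0.70 to 0.76, 0.78 and 0.46) and at 6 d. In WT it was called only at 6 d (from 1.09, -0.59 and -0.19 to 1.62, 1.78 and 1.84). Its means were -0.15 in the mutant and 0.99 in WT at 1 d, and 0.67 and 0.59 at 3 d. At 3 d the change in the mutant minus that in WT was 0.77 and was not called.

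The test of the difference between the darkening responses (the change in the mutant minus that in WT) called 1 member at 6 h, 2 after 1 d, 3 after 3 d and 7 after 6 d, against 7.48%, 12.7%, 15.1% and 21.4% of all genes. Over all genes, 2.84%, 6.29%, 7.77% and 10.8% were called positive and 4.63%, 6.44%, 7.35% and 10.6% negative. At 3 d and 6 d all of these calls were negative. The mutant's own change was then between -0.38 and 0.22 with no call for *ATG7* and *ATG18h* at 3 d and for *ATG1a*, *ATG18h* and *ATG4b* at 6 d, and a called rise smaller than that of WT for the others. *ATG7* differed by -2.48 ± 0.29 at 3 d and -2.36 ± 0.29 at 6 d (limma adjusted p = 2.3e-06 and 1.8e-06) and *ATG4b* by -2.86 ± 0.42 at 6 d (1.6e-05). *ATG4a* and *ATG3* at 1 d were the positive calls, at 1.65 and 1.04. *ATG16* and *NBR1*, the members higher at every time, were not called for this difference, which at 6 d was -0.12 ± 0.25 and 0.08 ± 0.20. The 4 times share the 0 d leaves of both genotypes.

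The ATG8 family, the targets of the conjugation genes, was higher in WT IDLs than in the light for 3 of 9 genes at 6 h (with *ATG8D* lower) and for 9 of 9 at 1 d, 3 d and 6 d. Of all genes, 18.1%, 18.7%, 20.8% and 22.1% were higher. Between genotypes 2 of 9 were higher and 5 lower at 0 d, 0 and 0 at 6 h, 1 and 0 at 1 d, 1 and 2 at 3 d, and 1 and 3 at 6 d. Over all genes 7.93%, 4.73%, 11%, 13.4% and 17.2% were higher and 9.26%, 6.66%, 11.4%, 14.2% and 17.9% lower. At 6 d *ATG8E* was higher (0.68 ± 0.14) and *ATG8A*, *ATG8G* and *ATG8I* were lower (-1.29, -1.24 and -1.05). Of the 5 other listed genes of the lipid kinase complex, 2 were lower in the mutant at 3 d and 2 at 6 d, and 0 were higher. Of all genes 14.2% and 17.9% were lower. These were the ATG14 genes, which direct the complex to autophagy: *ATG14a* by -0.80 and -1.57 and *ATG14b* by -1.03 and -1.73. At 0 d 1 of the 5 was lower and at 1 d 1 was higher, beside 9.26% and 11% of all genes. Over the 14 condition means, the pairwise correlation among the 29 members had a median of 0.68 over 406 pairs, of which 348 were above 0, and was 0.67 within a role and 0.68 between roles. The points share their libraries, so this is a description.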

How the data were processed

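Total RNA of 42 leaf samples was sequenced on Illumina instruments and processed by the authors. Per the labels and the study's methods, reads were checked with FastQC 0.11.4, cleared of rRNA with SortMeRNA and trimmed with Trimmomatic. They were assigned to TAIR10 transcripts with kallisto 0.43.0 and summed per gene with tximport. The authors then applied the blind variance-stabilising transformation of the DESeq2 package. The deposited values are scores: the authors subtracted the minimum from each transformed value and scaled each gene to mean 0 and SD 1 over the 42 libraries. Counts, depth and fold changes cannot be read from them, and the precision is that of 3 replicates per condition. Counting was set as strand-specific, while the protocol in the labels names no step that marks strand.

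The z-scores were fitted with limma 3.58.1 in R 4.3.3 (cell means, moderated variances). Libraries of both genotypes at 0 d and in IDLs (30 libraries, 20 residual degrees of freedom) gave the genotype, darkening and interaction contrasts. The 27 WT libraries (18 residual degrees of freedom) gave the contrasts with illuminated leaves. Genes were tested where at least 3 libraries of the fit lay above the gene's lowest value shared by 2 or more libraries (24407 and 24166 genes). The Benjamini-Hochberg adjustment was taken over these genes, and an adjusted p of at most 0.01 was a call. The scripts were tested on simulated data. Alternatives were all 42 libraries in one fit, only the libraries of the groups compared, no filter, a replicate block, and leaving out each library or replicate number.

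Each member was accounted for. Values by library are given for the called member furthest from 0 in each role and comparison, for members called at every time or in opposite directions, and for paralogues called in opposite directions. The members, lists and tests were chosen with earlier results of these data known. Neighbouring genes, shared 31-base words and upstream sequences came from the RefSeq annotation TAIR10.1 with Biopython 1.88. Figures were drawn with matplotlib 3.10.9.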

Additional observations from a re-analysis of the deposited data

Results flagged for a closer look

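For 13 combinations of member and time, the change from 0 d to IDLs in *rpn12a-236* differed from that in WT by the interaction test of limma (adjusted p of at most 0.01), given as the mutant's change minus that of WT in SDs of the gene. At 6 h it was *ATG18a* (-1.11 ± 0.25, adjusted p = 0.0043). At 1 d the mutant rose by more for *ATG4a* (1.65 ± 0.29, adjusted p = 0.00027) and *ATG3* (1.04 ± 0.27, adjusted p = 0.0063). At 3 d the difference was negative for *ATG7* (-2.48 ± 0.29, adjusted p = 2.3e-06), *ATG18f* (-1.35 ± 0.25, adjusted p = 0.00038) and *ATG18h* (-1.68 ± 0.45, adjusted p = 0.0074).

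At 6 d the members were *ATG4b* (-2.86 ± 0.42, adjusted p = 1.6e-05), *ATG7* (-2.36 ± 0.29, adjusted p = 1.8e-06), *ATG1a* (-1.72 ± 0.36, adjusted p = 0.00064), *ATG9* (-1.71 ± 0.43, adjusted p = 0.0033), *ATG18f* (-1.58 ± 0.25, adjusted p = 3.7e-05), *ATG18h* (-1.57 ± 0.45, adjusted p = 0.0089) and *ATG2* (-1.27 ± 0.35, adjusted p = 0.0078), all limma. Without the second mutant IDL library at 6 d the value was -1.28 for *ATG9* and -0.78 for *ATG2*, *ATG18h* was not called (adjusted p = 0.0298) and *ATG18g* was called (1.04). The calls of *ATG3* at 1 d, of *ATG18h* at 3 d and 6 d and of *ATG2* at 6 d were each lost without any of 9 libraries in turn, that of *ATG18a* at 6 h without any of 6, and that of *ATG9* without 1.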

How the results depend on the processing

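No difference changed direction among the members called between genotypes, in WT IDLs against light or for the interaction. Direction by member was not checked for the other comparisons. With only the libraries of the groups compared in each fit, fewer members were called: 3, 0, 2 and 6 between genotypes at 0 d, 6 h, 1 d and 6 d, 8 in WT IDLs against 0 d at 6 h, 0, 1 and 4 for the interaction at 6 h, 1 d and 6 d, 2 for WT IDLs against light at 6 h and 0 for illuminated leaves at 6 h against 0 d. That fit rests on fewer libraries. With all 42 libraries, without the filter and with the replicate block, counts stayed within 1.5 times the reported ones. Leaving out 1 library or 1 replicate number gave 3 to 6, 0 to 3, 2 to 7, 6 to 11 and 7 to 12 members between genotypes at the 5 times, 8 to 14 and 6 to 10 for WT and mutant IDLs at 6 h against 0 d, 0 to 1, 0 to 2, 1 to 4 and 3 to 8 for the interaction at the 4 times, and 1 to 8 for illuminated leaves at 6 h. Between genotypes at 1 d, the count was 3 without the second WT IDL library.

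Replicate numbers are shared between groups, but same-numbered libraries did not deviate together (correlation of deviations -0.14 to 0.24), so they share only a number. With the replicate block the counts between genotypes were 6, 5, 5, 11 and 10, those for WT IDLs against light 14, 15, 21 and 25, and those for the interaction 1, 2, 3 and 7. The files hold no depth, so how counting noise limits the members is unknown.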

Other observations

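Genes that work beside the core machinery also moved in darkness. Of 8 listed genes of selective autophagy, 8 were higher in WT IDLs than in illuminated leaves at 6 d (22.1% of all genes were), with *DSK2B* at 2.69 ± 0.27, *C53* at 2.59 ± 0.39 and *ATI2* at 2.30 ± 0.19 (limma adjusted p = 2.4e-08, 7.1e-06 and 1.3e-09). Of 4 genes of autophagosome trafficking, 4 were higher in the same comparison, with *FREE1*, which links endosomal sorting to autophagy, at 3.12 ± 0.28 and *CFS1* at 2.81 ± 0.17. Between genotypes *RPN10*, a ubiquitin receptor of the proteasome that also serves its autophagic turnover, was higher in *rpn12a-236* at each time (1.72 to 2.21), as was the ubiquitin adaptor *DSK2A* (1.71 to 2.13). *C53*, a receptor of ER autophagy, was lower at 6 d (-3.24 ± 0.39, limma adjusted p = 4.0e-07). *FREE1* was higher in the mutant at 0 d (1.31 ± 0.30) and lower at 6 d (-1.21 ± 0.30).

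Among 5 listed upstream regulators, 1 was lower in the mutant at 0 d and 1 at 6 d, beside 9.26% and 17.9% of all genes. At 3 d 1 was higher and 2 were lower, beside 13.4% and 14.2%, and 0 were called at 6 h and 1 d. *KIN10*, a catalytic subunit of the energy-sensing SnRK1 kinase, was lower at 0 d (-1.75 ± 0.25) and 3 d (-1.23 ± 0.25). *RAPTOR1A*, a partner of the TOR kinase, was lower at 3 d (-1.15 ± 0.28) and 6 d (-2.14 ± 0.28).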
